A study of Homo sapiens with 6 samples.

Results

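The genes described here encode the machinery that makes small regulatory RNAs and silences their targets. They are the 10 genes AGO1, AGO2, AGO3, AGO4, DICER1, DROSHA, DGCR8, XPO5, TARBP2 and TNRC6A, chosen by symbol, out of 20522 genes listed in each file. All 10 were found in every library and in the table of group values, and all 10 passed the filter on low counts. The study asked which mRNAs depend on NEAT1_2, the long isoform of a nuclear RNA that builds paraspeckles. It sequenced mRNA of K1, a long-established human line grown from papillary thyroid cancer. Of the 6 libraries, 3 came from K1 cells transfected with a negative control siRNA (NC) and 3 from K1 cells transfected with an siRNA against NEAT1_2 (si-NEAT1_2), so every library received a small RNA, with a Lipofectamine reagent as the carrier per the methods. The knockdown itself could not be checked, since NEAT1 was not analysed here. A transfected line is 1 cell population in culture, and nothing in the labels says that replicates were separate cultures, so that p-values measure only the spread between these libraries, which may be technical.

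A microRNA begins as a hairpin in a longer nuclear transcript. The Microprocessor, made of the RNase DROSHA and its RNA-binding partner DGCR8, cuts the hairpin out, XPO5 carries it to the cytoplasm, and DICER1 with its partner TARBP2 trims it to a duplex. An Argonaute protein keeps one strand of the duplex, or of a transfected siRNA, and uses it to find target mRNAs, and TNRC6A, a GW182 protein, links Argonaute to the enzymes that remove the poly(A) tail and the cap. AGO2 is the Argonaute that cuts a fully matched target, which is how an siRNA acts. The files hold the mRNAs of these proteins and no mature microRNA.

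Some of the members hold small RNA sequence themselves. DGCR8 is the host of microRNA hairpins in its own exon 2, and cleavage of the DGCR8 mRNA at hairpins by the Microprocessor is a known feedback on its level. The 3 mature microRNAs that RefSeq (GRCh38.p14) places there are shown because they mark the part of the DGCR8 mRNA that the Microprocessor can cut. Capitals mark the seed, bases 2 to 8 from the 5′ end.
hsa-miR-3618: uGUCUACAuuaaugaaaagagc
hsa-miR-1306-5p: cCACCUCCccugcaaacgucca
hsa-miR-1306-3p: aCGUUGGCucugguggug
On the plus strand of chromosome 22 they lie at 20085797 to 20085818, 20086072 to 20086093 and 20086112 to 20086129. The first is in the 5′ UTR of 3 annotated coding transcripts of DGCR8, and the other two are in the coding sequence of 4. A hairpin with the arms hsa-miR-3173-5p and hsa-miR-3173-3p lies within DICER1 as well, in 0 exons of its 15 annotated transcripts.

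The study worked with miR-491, and its seed complement was searched in the members. In RefSeq the arm hsa-miR-491-5p is on the plus strand of chromosome 9, from 20716120 to 20716141. For each gene the longest 3′ UTR among the coding transcripts that GENCODE tags as basic was used. The heptamer TCCCCAC, read on the transcript strand only, occurs in it for 4 of the 10 members, against 16.9% of 19114 genes with a 3′ UTR. The microRNA and the 5 stretches of 3′ UTR around a match (GENCODE release 29, GRCh38) are shown with the seed and the heptamer in capitals.
hsa-miR-491-5p: aGUGGGGAacccuuccaugagg
AGO1, chromosome 1, plus strand, heptamer at 35924092 to 35924098: tctctggaTCCCCACagctgtgt
AGO3, chromosome 1, plus strand, heptamer at 36072097 to 36072103: aactatctTCCCCACaaaaaata
AGO3, chromosome 1, plus strand, heptamer at 36072134 to 36072140: aactatctTCCCCACagaaatta
XPO5, chromosome 6, minus strand, heptamer at 43523378 to 43523384: ggaaacttTCCCCACtccctaag
TNRC6A, chromosome 16, plus strand, heptamer at 24825714 to 24825720: cttcatctTCCCCACcatttgtg
The 2 matches in AGO3 share the bases printed before the heptamer. A match describes the sequence and measures no binding, and long 3′ UTRs hold more matches by length alone: that of AGO3 has 16755 bases and that of TARBP2 has 283. For the other microRNAs whose mimics the study used, the complement of the seed of hsa-miR-19b-3p occurs in 6 members (13.5% of all genes) and that of hsa-miR-135b-5p in 2 (13.2%).

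The libraries held 22798631 to 27066025 expected counts each. Of the thyroid follicular cell markers, PAX8, FOXE1 and TG were at 1 FPKM or more in every library. FPKM is the authors' count scaled for transcript length and library size. TSHR, SLC5A5, NKX2-1 and DIO1, which serve the differentiated state, were below 1 FPKM in every library. The epithelial keratin KRT8 ranged from 1149.03 to 1586.37 FPKM, while CDH1 and KRT19 were below 1. All 5 leukocyte and all 4 endothelial markers were below 1 FPKM throughout, and the summed fibroblast list, in which LUM made up most, was 24.89 to 29.44 FPKM in NC and 19.25 to 22.19 in si-NEAT1_2. Its part in the results was not tested.

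Levels of different genes can be set side by side only per length, and on the FPKM scale the NC libraries placed TARBP2 first and AGO4 last. In NC the mean FPKM was 25.1 ± 3.35 (SD, n = 3) for TARBP2, 16.8 ± 1.05 for XPO5, 13.8 ± 0.762 for DROSHA and 10.9 ± 0.826 for DGCR8. Each of these 4 genes was above the next in all 3 libraries without overlap of their ranges. AGO2 followed at 8.79 ± 0.600, then TNRC6A at 7.51 ± 1.89, AGO3 at 6.05 ± 0.915, DICER1 at 5.77 ± 2.198 and AGO1 at 5.08 ± 0.312. Neighbours in that second stretch overlapped and cannot be ordered. AGO4 stood below all of them at 1.87 ± 0.163. The si-NEAT1_2 libraries gave the same order of means except that AGO1 (3.49 ± 1.36) came before DICER1 (3.16 ± 1.41), and there DROSHA overlapped with DGCR8 and DICER1 with AGO4.

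**Figure D1:**
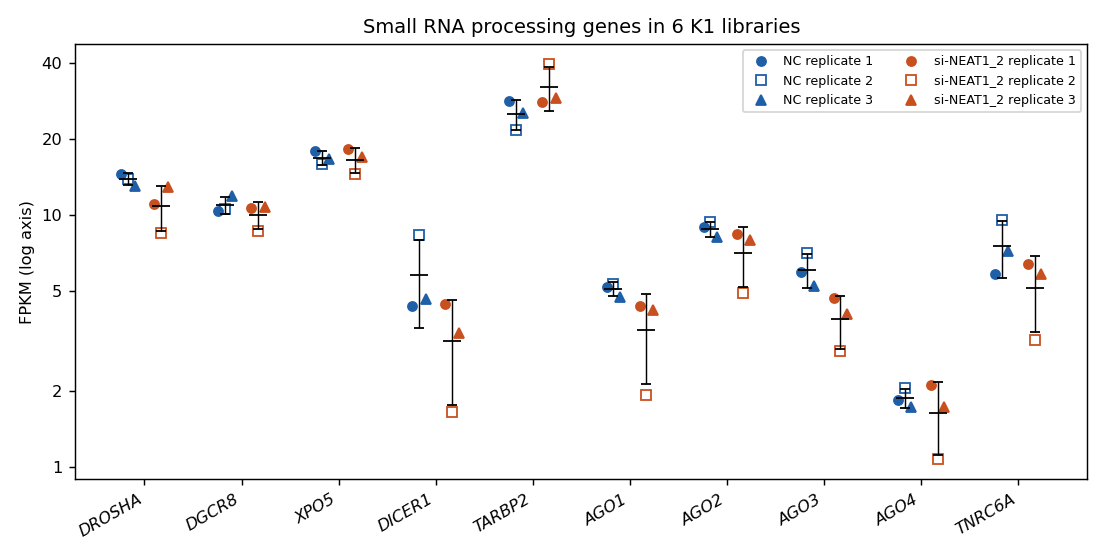
FPKM of the 10 genes (log axis) in each library, blue for NC and orange for si-NEAT1_2, with the marker shape giving the replicate, and bars for the mean ± SD of 3 libraries. The open orange square, si-NEAT1_2 replicate 2, is the lowest of the 6 points for every gene but TARBP2, where it is the highest at 39.69.

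Between the groups, none of the 10 genes passed the test. The test was edgeR's quasi-likelihood test on the expected counts of 13109 genes, and a gene was called at a Benjamini-Hochberg adjusted p under 0.05 with a fold change of at least 2. Across all genes 0.00% were called higher and 0.00% lower by that test, while DESeq2 called 25 genes higher and 48 lower, of which 0 were members. At an unadjusted p under 0.05 the quasi-likelihood test listed 2 members lower in si-NEAT1_2 (DICER1 and TNRC6A), where 12.9% of all genes were, and 1 higher (TARBP2), where 11.2% were. The count of 1 became 0 on leaving out any of NC replicates 2 and 3 and si-NEAT1_2 replicate 2. The count of 2 became 1 on leaving out any of si-NEAT1_2 replicates 2 and 3 and NC replicate 2. The log2 fold change was below 0 for 8 members and above 0 for 2, with a median of -0.23, against 49.1% below 0 and a median of 0.01 over all genes. In bulk RNA of this kind, less of an mRNA per cell and fewer cells that express it cannot be told apart.

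DROSHA and DGCR8, the Microprocessor, lay close together in the 2 groups. DROSHA (ENSG00000113360) is annotated on chromosome 5 (GRCh38, minus strand) at 31400497 to 31532196, and DGCR8 (ENSG00000128191) spans 20080232 to 20111877 on the plus strand of chromosome 22. In counts scaled to library size by TMM (CPM), DROSHA gave 57.7, 53.3 and 51.6 in NC and 49.6, 42.7 and 51.3 in si-NEAT1_2, here and throughout in the order of replicates 1, 2 and 3. All 3 si-NEAT1_2 values were below all NC values, but the nearest, 51.3 and 51.6, almost met. The log2 fold change was -0.18 (standard error 0.13) with an adjusted p of 0.393 from edgeR's quasi-likelihood test, and the exact permutation p of 0.10 is the smallest that 3 against 3 libraries can give. DGCR8 gave 45.9, 46.2 and 52.5 CPM in NC and 47.0, 42.2 and 48.6 in si-NEAT1_2. These ranges overlapped, and the log2 fold change was -0.07 with an approximate 95% interval from -0.32 to 0.19. Such intervals of members took the standard error and a normal distribution, which makes them too narrow with 3 libraries a group. The ratio of DROSHA to DGCR8 in FPKM was 1.41, 1.31 and 1.10 in NC and 1.03, 0.984 and 1.20 in si-NEAT1_2, with overlapping ranges (exact permutation p = 0.2, two-sided, as for all single values here).

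XPO5, the export receptor for hairpin precursors, had the smallest difference of the 10. The gene (ENSG00000124571) lies on chromosome 6 (minus strand), from 43522330 to 43576075. Its CPM was 89.5, 82.6 and 87.2 in NC and 94.1, 81.6 and 90.0 in si-NEAT1_2. The highest and the lowest library were both si-NEAT1_2. The log2 fold change was 0.04 with an approximate 95% interval from -0.20 to 0.27. It became -0.000425 when NC replicate 2 was omitted and -0.02 when si-NEAT1_2 replicate 1 was, so its sign depended on single libraries. Relative to DROSHA, the XPO5 FPKM was 1.24, 1.15 and 1.27 times as high in NC and 1.66, 1.71 and 1.31 times in si-NEAT1_2. The groups did not overlap in this ratio, 1 of 8 sums, shares and ratios computed (exact permutation p = 0.10, the smallest possible). The transcript length behind the DROSHA FPKM was 4607, 4638 and 3963 bases in si-NEAT1_2, against 4015, 3963 and 4037 in NC. Whether the ratio would separate without that length was not tested.

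DICER1, the RNase that cuts the hairpin precursor to its final length, had the lowest log2 fold change of the members. It is encoded on chromosome 14 (minus strand), from 95086228 to 95158010 (ENSG00000100697). It gave 39.8, 65.0 and 46.1 CPM in NC against 37.9, 17.9 and 29.2 in si-NEAT1_2. The groups did not overlap, but NC replicate 1 and si-NEAT1_2 replicate 1 were only 1.93 CPM apart, and NC replicate 2 and si-NEAT1_2 replicate 2 stood at the ends. The mean was 50.3 ± 13.1 CPM (SD, n = 3) in NC and 28.3 ± 10.01 in si-NEAT1_2. The log2 fold change was -0.83 (standard error 0.26, approximate 95% interval -1.33 to -0.32). That lies at percentile 2.82 of all genes tested, and edgeR's quasi-likelihood test gave a p of 0.00835 and an adjusted p of 0.170. The adjusted p was 0.0429 with DESeq2, at a fold below the limit of 2. Without si-NEAT1_2 replicate 1 DICER1 met both limits, with a log2 fold change of -1.1 and an adjusted p of 0.0493, while without si-NEAT1_2 replicate 2 the values were -0.59 and 0.267. On the FPKM scale DICER1 ran from 4.36 to 8.30 in NC and from 1.65 to 4.44 in si-NEAT1_2, and there the groups overlapped (exact permutation p = 0.2).

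TARBP2, the double-stranded RNA-binding partner of DICER1, lay in the other direction. Its gene (ENSG00000139546) is the most compact of the 10, from 53500921 to 53506431 on the plus strand of chromosome 12. TARBP2 gave 41.6, 32.0 and 38.0 CPM in NC and 41.9, 63.3 and 43.8 in si-NEAT1_2. Every si-NEAT1_2 library was above every NC library, by as little as 0.341 CPM, and si-NEAT1_2 replicate 2 stood far above the rest. The log2 fold change was 0.42 (standard error 0.18), with a p of 0.0409 and an adjusted p of 0.194 from edgeR's quasi-likelihood test. Omitting si-NEAT1_2 replicate 2 brought it to 0.20. The ratio of TARBP2 to DICER1 in FPKM was 6.50, 2.60 and 5.44 in NC and 6.30, 24.1 and 8.53 in si-NEAT1_2, overlapping through the 2 libraries numbered 1 (exact permutation p = 0.2).

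The Argonautes carry the guide strand. AGO4, AGO1 and AGO3 stand side by side on the plus strand of chromosome 1 in that order, from 35808172 to 36072500, with 11917 bases between AGO4 and AGO1 and 189 between AGO1 and AGO3, and AGO2 is on chromosome 8 (ENSG00000134698, ENSG00000092847, ENSG00000126070 and ENSG00000123908). AGO1 gave 39.98, 42.1 and 39.8 CPM in NC and 37.9, 25.2 and 37.0 in si-NEAT1_2. Its groups did not overlap, and 2 of the si-NEAT1_2 values were within 3 CPM of the lowest NC value. AGO2, the slicer, gave 83.2, 91.9 and 78.1 CPM in NC and 77.3, 46.3 and 78.4 in si-NEAT1_2, where only replicate 2 stood clearly apart. AGO3 gave 17.4, 23.6 and 17.1 in NC against 18.9, 10.9 and 14.4, and AGO4 gave 13.0, 14.1 and 12.1 against 14.8, 8.23 and 12.4. For AGO2, AGO3 and AGO4 the groups overlapped in CPM. In FPKM AGO3 gave 5.94, 7.02 and 5.20 in NC and 4.67, 2.87 and 4.02 in si-NEAT1_2, without overlap (exact permutation p = 0.10, the smallest possible). The transcript length behind these FPKM values was greater in every si-NEAT1_2 library than in any NC library. The share of all genes without overlap in FPKM was not computed. The log2 fold changes were -0.28, -0.33, -0.39 and -0.14 for AGO1 to AGO4, with adjusted p of 0.302, 0.290, 0.270 and 0.692 from edgeR's quasi-likelihood test. Without si-NEAT1_2 replicate 2 that of AGO4 was 0.05.

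The Argonaute mRNAs can also be read as a pool, per length. The summed FPKM of AGO1 to AGO4 was 21.9, 23.7 and 19.8 in NC and 19.5, 10.8 and 17.9 in si-NEAT1_2. AGO2 made up 40.8%, 39.3% and 41.1% of that sum in NC and 42.9%, 45.6% and 44.4% in si-NEAT1_2, and AGO4 made up 8.41%, 8.64% and 8.74% against 10.9%, 9.94% and 9.67%. In the sum and in both shares the groups did not overlap (exact permutation p = 0.10 for each of these 3 quantities, out of 8 sums, shares and ratios computed, and the smallest that 3 against 3 can give). The shares of AGO1 and AGO3 overlapped between the groups. FPKM includes a transcript length, and the length behind the AGO1 and AGO3 values was greater in every si-NEAT1_2 library than in any NC library. The sum and the shares were not computed in CPM, where AGO2, AGO3 and AGO4 each overlapped. Whether they would separate without that length was not tested.

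TNRC6A, which recruits the deadenylases to Argonaute, resembled DICER1 in its order of libraries. Its gene (ENSG00000090905) extends from 24610209 to 24827632 on the plus strand of chromosome 16. TNRC6A gave 41.7, 61.1 and 46.9 CPM in NC and 43.2, 24.7 and 37.2 in si-NEAT1_2. NC replicate 2 was the highest and si-NEAT1_2 replicate 2 the lowest, and the groups overlapped in the libraries numbered 1. The log2 fold change was -0.51 (standard error 0.21), with a p of 0.0349 and an adjusted p of 0.186 from edgeR's quasi-likelihood test. In all, 3 members (AGO1, DICER1, DROSHA) had every si-NEAT1_2 library below every NC library, a pattern of 14.1% of all genes, and TARBP2 alone had every one above, as 15.4% of all genes did.

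A single library marked the ends of most of these series. In CPM, si-NEAT1_2 replicate 2 was the lowest of the 6 libraries for 9 of the 10 members, against 33.1% of all genes, and the highest for TARBP2, against 32.0%. NC replicate 2 was the highest for 5 members. The labels carry a library code, L2, L3 or L4, whose meaning they do not state. Within L2, which holds NC replicates 2 and 3 and si-NEAT1_2 replicate 2, the log2 difference in CPM was -1.58 for DICER1, -1.10 for TNRC6A and 0.85 for TARBP2. Within L3, which holds NC replicate 1 and si-NEAT1_2 replicate 3, it was -0.44, -0.16 and 0.08. The signs were the same in both for these 3 genes and the sizes were not, and L4 holds only si-NEAT1_2 replicate 1.

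Transcript length and GC content moved with the fold changes. Over 12581 genes with a gene model, the log2 fold change had a Spearman correlation of -0.53 with the length of the longest coding transcript and of 0.65 with its GC content. Across the 10 members the values were -0.76 and 0.72. Genes are not independent replicates, and these points share the same 6 libraries. DICER1 (10331 bases, 39.2% GC) and AGO3 (19687 bases, 38.9% GC) are long and poor in GC, while TARBP2 (1867 bases, 60.8% GC) is the shortest member and the richest in GC. By library, the departure of all genes from their mean correlated with length from 0.51 in NC replicate 2 to -0.67 in si-NEAT1_2 replicate 2, the libraries that stood at the ends for DICER1 and TNRC6A. With GC content it ran from -0.68 in NC replicate 2 to 0.64 in si-NEAT1_2 replicate 3, with 0.53 in si-NEAT1_2 replicate 2, so the high end there was another library.

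**Figure D2:**
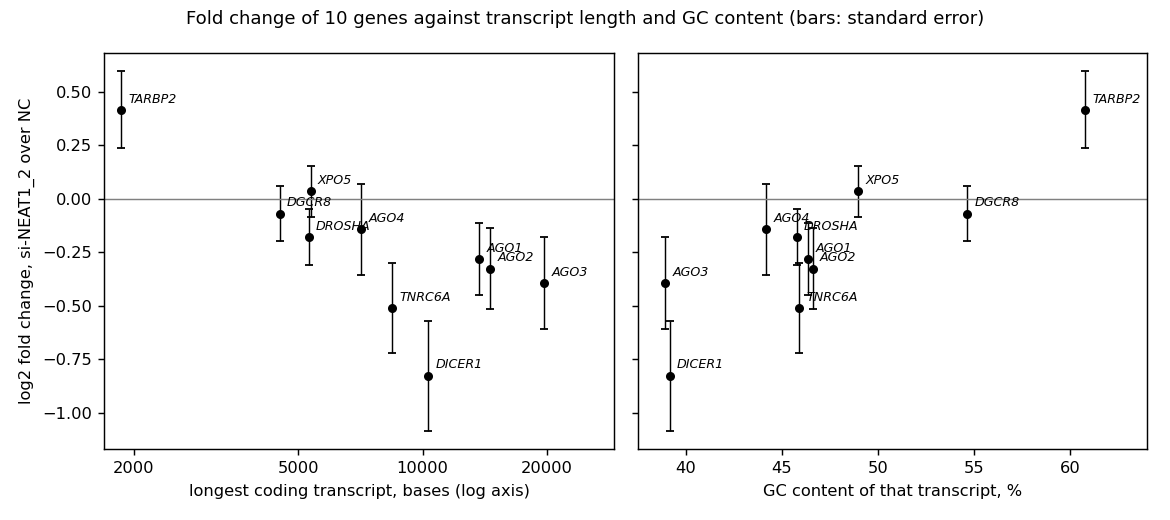
Log2 fold change of each of the 10 genes (si-NEAT1_2 over NC, bars for the standard error) against the length of its longest coding transcript in bases (left, log axis) and the GC content of that transcript in percent (right). TARBP2, at 1867 bases and 60.8% GC, is the highest point, and DICER1, at 10331 bases and 39.2% GC, the lowest.

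With the trend of each library along GC content and length taken out, 4 of the 10 log2 fold changes lay within 0.05 of 0. TARBP2 then had a log2 fold change of 0.03 in place of 0.42, AGO1 0.02, AGO2 -0.04 and DROSHA 0.00186. The signs of AGO1, AGO3, AGO4 and DROSHA turned. AGO3 was at 0.17, AGO4 at 0.15 and TNRC6A at -0.24, while XPO5 (0.13) and DGCR8 (-0.14) lay farther from 0 than before. DICER1 was at -0.31 (standard error 0.10), with a p of 0.0121 and an adjusted p of 0.226 from edgeR's quasi-likelihood test. Its corrected CPM, 38.4, 43.9 and 40.5 in NC and 36.3, 29.2 and 33.4 in si-NEAT1_2, still did not overlap between the groups. That of XPO5, 86.7, 79.4 and 85.9 in NC and 92.3, 95.7 and 87.2 in si-NEAT1_2, did not overlap either, with every si-NEAT1_2 library higher (exact permutation p = 0.10 for both genes, the smallest possible). For 8 members the corrected CPM overlapped between the groups. The share of all genes without overlap on this corrected scale was not computed. The separations therefore cannot be called particular to DICER1 and XPO5. The corrected log2 fold change was above 0 for 6 members and below 0 for 4, with a median of 0.01. Since the trend differs between the groups as well as within them, what part of a gene's difference belongs to the trend and what part to the siRNA cannot be told apart in 6 libraries.

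**Figure D3:**
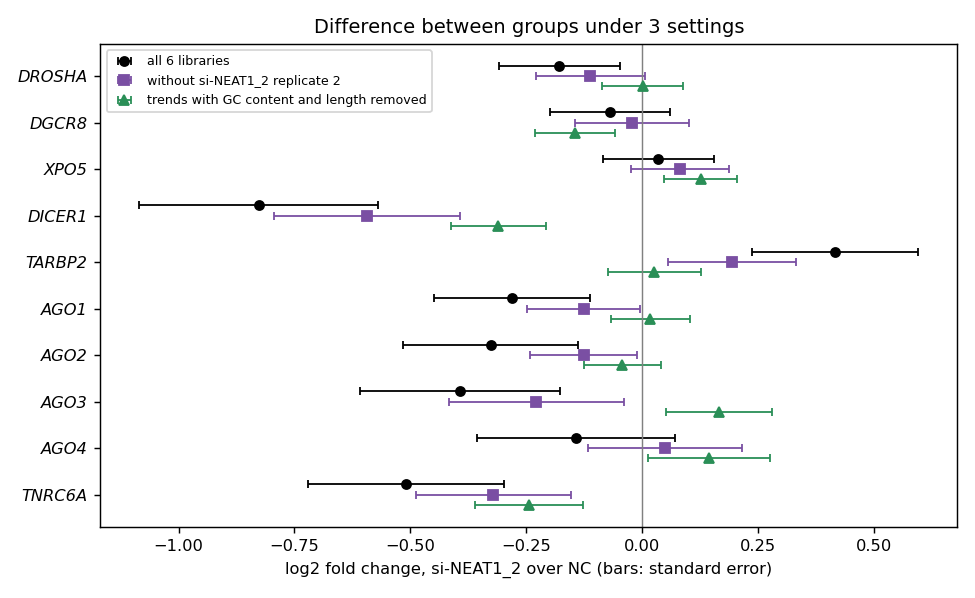
Log2 fold change (si-NEAT1_2 over NC, bars for the standard error) of the 10 genes with all 6 libraries (black), without si-NEAT1_2 replicate 2 (purple) and with the GC and length trends removed (green). DICER1 stays lowest in all 3 settings, from -0.83 to -0.31, and TARBP2 moves from 0.42 to 0.03.

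The deposited counts and FPKM values of a library together give the transcript length behind each FPKM value, which shows how the counting split reads among isoforms. For all 285 genes with a single transcript and at least 5 FPKM in every library, this length was within 1% of the annotated one in each library. AGO4, with 1 coding transcript of 7116 bases, came out at 7092 to 7128 bases, and DGCR8 at 4500 to 4516, where the groups did not overlap but lay only 2 bases apart. The length for AGO1 was 7817, 8155 and 8572 bases in NC and 8913, 12120 and 8762 in si-NEAT1_2. No NC library reached a si-NEAT1_2 library, and replicate 2 stood far above the others. The annotation gives AGO1 coding transcripts of 3996 and 13708 bases. For AGO3 it was 2973, 3474 and 3344 bases in NC and 4119, 3502 and 3563 in si-NEAT1_2, again without overlap, although the nearest libraries were 28 bases apart. AGO1 and AGO3 each gave an exact permutation p of 0.10, the smallest possible. The share of all genes whose lengths did not overlap was not computed, so the separations cannot be called particular to these members. The DROSHA length was 3963 to 4037 bases in NC and 4607, 4638 and 3963 in si-NEAT1_2, overlapping through replicate 3. Lengths for DICER1, TNRC6A, XPO5, AGO2 and TARBP2 overlapped between the groups. The low AGO1 FPKM of si-NEAT1_2 replicate 2, 1.92 against 4.20 or more elsewhere, thus combined a lower count, 601, with a longer assumed transcript.

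**Figure D4:**
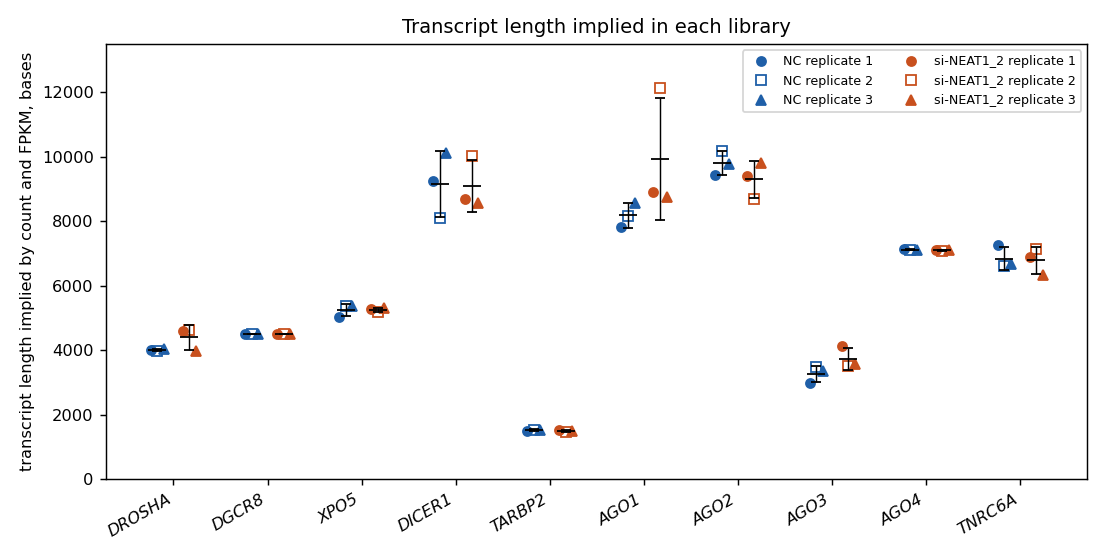
Transcript length in bases implied by the deposited count and FPKM of each gene and library, blue for NC and orange for si-NEAT1_2, with the mean ± SD of 3 libraries. AGO1 in si-NEAT1_2 replicate 2 stands at 12120 bases, while AGO4 and DGCR8 hardly vary.

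The authors' table of group values gave another picture of the same genes. Its columns total 17678761 counts for NC and 19579897 for si-NEAT1_2, below every library, and hold 1 value per group with no spread. Its NC value lay below all 3 NC libraries for 9 of the 10 members, against 51.9% of 10343 genes, and above them for TARBP2. It is thus the mean of these 3 libraries for none of the 10. The 10343 genes were those tested that had at least 1 FPKM in a column of the table and on average in the NC libraries. AGO4, at 0.977 and 0.893 FPKM in the columns, is not among them. It lay within their range for 0 members, against 13.7% of genes. The si-NEAT1_2 value was below the 3 libraries for 4 members, within their range for 3 and above it for 3, and the shares of all genes were not computed for that column. Across 10343 genes its NC column had a Spearman correlation of 0.848 with the mean of the NC libraries, whereas the lowest between any pair of the 6 libraries was 0.932.

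For DICER1 the direction was the opposite of that in the libraries. The table gives DICER1 an FPKM of 2.09 in NC and 5.21 in si-NEAT1_2, a ratio of 2.498, where the libraries averaged 5.77 and 3.16. It was the 1 member with a ratio of 2 or more, as 3.12% of 10753 tested genes with at least 1 FPKM in a column had. Scaled by the column totals, its counts of 299 and 881 gave a log2 ratio of 1.41. The 95% interval of 1.22 to 1.61 is for counting error only and takes these values as raw read counts, which they may not be. AGO2, at 6.20 and 10.7 FPKM, DGCR8, at 4.67 and 6.65, and TNRC6A, at 4.83 and 5.39, were likewise higher in the si-NEAT1_2 column and had log2 fold changes below 0 in the libraries. The share of all genes with such opposite directions was not computed, so the disagreement cannot be called particular to these members. TARBP2, at 29.3 and 47.8, was higher in both sources. XPO5, at 8.77 and 10.8, was higher in the si-NEAT1_2 column. In the libraries its log2 fold change was 0.04, but its mean FPKM was 16.8 in NC and 16.5 in si-NEAT1_2, slightly lower. AGO1, at 4.12 and 2.77, AGO3, at 3.67 and 3.31, AGO4, at 0.977 and 0.893, and DROSHA, at 8.19 and 6.54, were lower in both. The median log2 ratio of the 10 was 0.23 in the table, against -0.21 over genes that reached 1 FPKM there, which leave out AGO4. How the table was made, and from which libraries, is not given in the sources used here. Its NC counts of AGO2, 1006.67, and of DROSHA, 563.667, have the form of a mean of 3 values. Which values went into them was not tested.

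**Figure D5:**
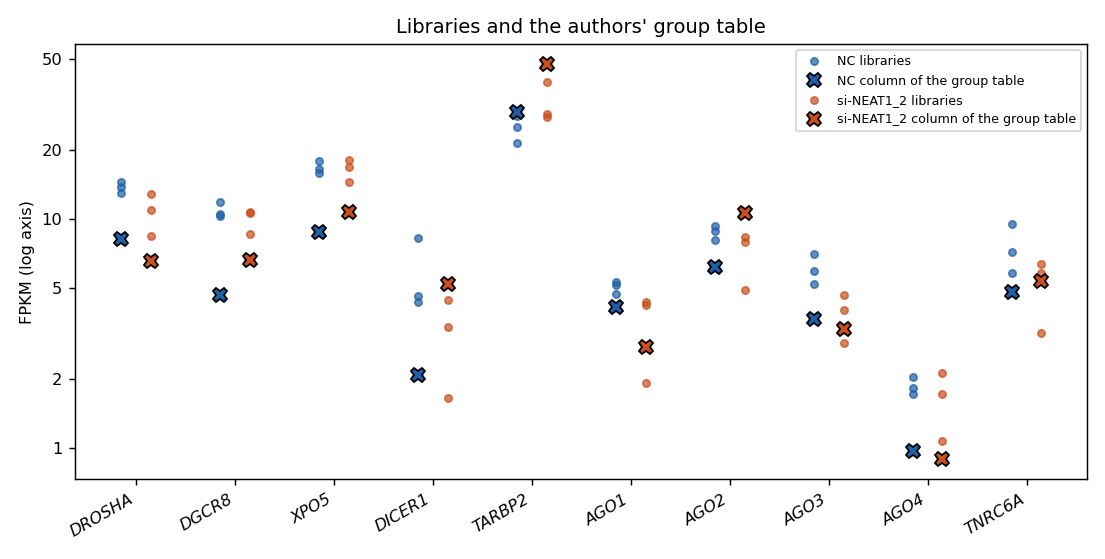
FPKM of the 10 genes (log axis) in the single libraries (small points) and in the authors' group table (crosses), blue for NC and orange for si-NEAT1_2. The NC cross lies below the 3 NC points for all genes but TARBP2, and for DICER1 the crosses stand at 2.09 and 5.21, the reverse order of the library means.

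The wider small RNA pathway was read from a list of 91 further genes by role. Of these, 81 passed the filter on low counts, 34 with a log2 fold change above 0 and 47 below, with a median of -0.09. The test called 0 of them. At an unadjusted p under 0.05 it listed 1 gene higher and 18 lower, 1.23% and 22.2% of the 81 where 11.2% and 12.9% of all genes were. DESeq2 and limma also called 0 of them at the same limits. Without si-NEAT1_2 replicate 1 the quasi-likelihood test called 1 of them lower, XRN1, at a log2 fold change of -1.2 and an adjusted p of 0.0493. With the GC and length trends removed the counts were 10 higher and 6 lower, so the direction of the list is not settled by these libraries. Counts for the single role lists below were not computed with the trends removed.

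Around the Microprocessor, 5 of 10 nuclear cofactors of hairpin cropping were above 0 and 5 below, with 1 lower and 0 higher at an unadjusted p under 0.05. They ran from -0.37 (adjusted p 0.172, edgeR's quasi-likelihood test) for NCBP1, a subunit of the nuclear cap-binding complex, to 0.17 for METTL3, the RNA methyltransferase. At that limit 12.9% of all genes were lower and 11.2% higher, and of 5 export partners 2 were lower and 1 higher. NUP153, a nuclear pore protein, was lowest at -0.49, and XPO1, the main exporter of proteins, which was named after its values were seen, was at -0.41. RCC1, which loads the GTPase RAN with GTP and so drives export, was highest at 0.36. RCC1 gave 156, 128 and 150 CPM in NC and 170, 201 and 186 in si-NEAT1_2, with no overlap (adjusted p 0.172, edgeR's quasi-likelihood test).

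Near DICER1, 3 of 8 tested partners and precursor-modifying enzymes were above 0 and 5 below. At an unadjusted p under 0.05, 2 of them were lower and 0 higher, where 12.9% and 11.2% of all genes were. The uridylyltransferase TUT7 was lowest at -0.74 and the RNase ZC3H12A highest at 0.17. LIN28A and LIN28B, which block let-7 maturation, had at most 3 counts in any library. Of 11 chaperones and passenger strand factors, 6 were above 0 and 5 below, with 1 lower and 0 higher at that limit. HSP90AA1, a chaperone that opens Argonaute for loading, was lowest at -0.55 (adjusted p 0.170, edgeR's quasi-likelihood test). It gave 2024, 2545 and 1949 CPM in NC and 1626, 1459 and 1356 in si-NEAT1_2, without overlap. FKBP4, a co-chaperone of HSP90, was highest at 0.28, with 245, 221 and 232 CPM in NC against 252, 319 and 276, also without overlap.

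Downstream of Argonaute, 9 of 13 GW182 relatives and deadenylation factors, 8 of 13 decapping and decay factors, 6 of 12 tested Argonaute-associated RNA-binding proteins and 5 of 6 turnover enzymes were below 0, where 49.1% of all genes were. At an unadjusted p under 0.05 the lists held 3, 3, 4 and 2 lower genes and 0 higher. Over all genes 12.9% were lower and 11.2% higher at that limit, and with so few genes a list the counts are a description only. Among the GW182 relatives and deadenylation factors, TNRC6C, a paralog of TNRC6A, was lowest at -0.70 and CNOT3, a subunit of the CCR4-NOT deadenylase complex, highest at 0.15. Of the decapping and decay factors, XRN1, the 5′ to 3′ exonuclease that removes decapped mRNA, was lowest at -0.89 (adjusted p 0.170, edgeR's quasi-likelihood test), and DCP1B, a decapping cofactor, highest at 0.26. XRN1 gave 18.8, 29.4 and 23.6 CPM in NC and 17.7, 8.02 and 13.0 in si-NEAT1_2. As with DICER1, the groups did not overlap, and replicates 2 stood at the ends. Of the RNA-binding proteins, FXR1, a relative of the fragile X protein, was lowest at -0.58 and ELAVL1, which binds AU-rich elements, highest at 0.24. Among the turnover enzymes the exonuclease ERI1 was lowest at -0.35 and the terminal uridylyltransferase TUT1 highest at 0.28.

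Of the 10 genes of the germline PIWI pathway, 3 could be tested and 7 failed the filter, PIWIL1, PIWIL2 and PIWIL3 among them, with at most 5 counts in any library. PIWIL4 passed with at most 26 counts in a library and 0 in si-NEAT1_2 replicate 1, so its fitted log2 fold change of -0.97 (standard error 0.82) rests on very few reads. PLD6, a mitochondrial phospholipase of the pathway with up to 130 counts in a library, was highest at 0.11, and HENMT1, which methylates the 3′ end of piRNAs and was likewise named after its values were seen, was at -0.33 with up to 102.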

How the data were processed

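Messenger RNA of 3 NC and 3 si-NEAT1_2 K1 libraries, grouped by their labels, was examined. Per the paper's methods, poly(A) RNA was enriched and rRNA was removed with a Ribo-Zero kit, and reads were mapped with TopHat2 and quantified with RSEM. The submitters' processing notes instead list fastp 0.18.0, Bowtie2 2.2.8, HISAT2, StringTie 1.3.1 and GRCh38. The deposited expected counts are estimates per gene and library, not normalized, and 9.19% to 9.61% of them were not whole. The deposited FPKM values were scaled by the authors for transcript length and depth. The table of group values holds both units. Unannotated loci (838) held at most 0.447% of counts. Columns of per-sample values left unmapped numbered 0.

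The edgeR package (version 4.0.16, R 4.3.3) was used to round and filter the expected counts (filterByExpr, 13109 genes), to scale them by TMM and to run its quasi-likelihood test. Adjustment (Benjamini-Hochberg) covered all genes tested. Single values were compared by exact permutation (scipy 1.17.1). Alternatives were no TMM, DESeq2 1.42.0, no filter or at least 10 counts in every library, limma 3.58.1 on log2(FPKM + 1) or log2(FPKM + 0.1), a replicate block, the library code, splines (5 degrees of freedom) of GC content and length per library as offsets, which 95.972% of genes tested had values for, and leaving out each library. Transcripts, positions and 3′ UTRs came from GENCODE release 29, and microRNAs from RefSeq. The scripts were tested on simulated data.

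The members and lists were chosen with earlier results of these data known. The genes named were the members and, per role list, the genes with the highest and the lowest log2 fold change among those tested. Marker lists held thyroid, epithelial, fibroblast, leukocyte and endothelial genes, of which 1 is not reported here.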

Additional observations from a re-analysis of the deposited data

How the results depend on the processing

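With 3 libraries a group and a trend with GC content and length between libraries, differences of the members did not pass the test with all 6 libraries. Genes called higher and lower numbered 25 and 48 with DESeq2 (1273 genes had no adjusted p), 9 and 9 without a filter, 1 and 3 with the GC and length offsets, 0 and 1 without TMM and 0 and 1 with limma on log2(FPKM + 0.1). Leaving out a library gave 0 to 32 higher and 0 to 184 lower, both maxima without si-NEAT1_2 replicate 1. Of the members, DICER1 was called only there, at -1.1 and an adjusted p of 0.0493. Over those omissions its log2 fold change ran from -1.1 to -0.594, and over all 16 alternatives its adjusted p ran from 0.0429 to 0.557.

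Members higher at an unadjusted p under 0.05 went from 1 to 0 without TMM, with limma at both pseudocounts and with the offsets, and were 0 to 1 over omitted libraries. Members lower numbered 1 with the offsets, 4 with the library code and 1 to 3 over omitted libraries. With limma at both pseudocounts they numbered 2, AGO3 and DICER1, where the main test listed DICER1 and TNRC6A. Of the wider list, the counts higher were 4 with the library code, 10 with the offsets and 0 to 4 over omitted libraries. The counts lower were 6 with the offsets and 4 to 20 over omitted libraries. The cause was not tested.

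The paper's methods speak of pairs of NC and si-NEAT1_2 cells, but no source used here says that a replicate number marks a pair. Deviations of same-numbered libraries correlated at -0.378, -0.465 and -0.0134, so the block was kept as an alternative, and a pairing by design remains possible. A fit with the replicate block called 0 genes, with 1538 at an unadjusted p under 0.05, and the counts were 0 members higher and 1 lower, and 0 of the wider list higher and 9 lower. With block and offsets these were 0 and 1, and 4 and 3.

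Signs turned with the offsets, and with offsets and block, for AGO1 (0.0177 and 0.0183), AGO3 (0.167 and 0.168), AGO4 (0.145 and 0.137) and DROSHA (0.00186 and 0.00404). AGO4 ran from -0.348 to 0.0506 over omitted libraries, above 0 without si-NEAT1_2 replicate 2. XPO5 was -0.0231 without TMM, -0.0282 and -0.03 with limma at pseudocounts of 1 and 0.1, -0.029 with the library code and -0.0182 to 0.0823 over omitted libraries. Scaled counts of the group table gave log2 ratios of -0.762 for AGO1 and 0.981 for AGO2. The other log2 fold changes kept their sign in all 16 alternatives. The cause of these changes was not tested.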
